A study of Mus musculus with 2 samples.

Results

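The genes described here are 227 genes of the mouse heart whose Gene Ontology (GO) terms include actin binding and none of 5 terms for the sarcomere, the Z disc, the muscle myosin complex, the intercalated disc or the cell-cell junction. They were taken from 281 actin-binding genes among the 13687 genes that carried GO terms, out of 28944 genes annotated to a peak. Their chromatin was profiled by ATAC-seq, an assay in which Tn5 transposase inserts adapters into open DNA, so that sequenced fragments pile up where chromatin is accessible. The hearts came from mice 4 days old. One library was made from pooled hearts of 7 Wtapflox/flox mice, which carry Wtap alleles flanked by loxP sites, and 1 from pooled hearts of 6 Wtap-CKO mice, in which Wtap was deleted in cardiomyocytes only. Wtap belongs to the RNA methyltransferase complex of the nucleus, and the comparison asks what its loss from cardiomyocytes does to accessible chromatin of the whole heart. By that design the other cells of the Wtap-CKO hearts keep the gene, and the nuclei were not sorted by cell type as far as the labels say. The promoter that drives the Cre recombinase is not given in the sources used here. Each genotype is 1 pool and 1 library, so no test between genotypes was possible, and every ratio compares these 2 libraries.

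Actin monomers assemble into filaments that grow mainly at one end, the barbed end, and shorten at the other, the pointed end. Nucleators such as the Arp2/3 complex start filaments, capping proteins stop growth, severing proteins break filaments, crosslinkers and bundlers arrange them, and myosins pull on them or walk along them. In the heart such proteins serve the cell cortex, adhesion, vesicle traffic and migration of all cell types, and they also form the actin structures of cardiomyocytes outside the sarcomere.

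The 227 genes held 1378 of the 83549 peaks, 414 within 1000 bp of an annotated transcript start (promoter peaks) and 964 farther away (distal peaks). Peaks were assigned by the authors to the gene with the nearest start, which does not show that they regulate it. A promoter peak was present for 202 of the genes and a distal peak for 177, with both for 152; 25 genes had no promoter peak and 50 no distal peak. Members were chosen by their GO terms and by having a peak in the measured table, not by a threshold on a ratio. The group was still proposed with ratios of these libraries known, so everything below is a description. The files give Ensembl gene IDs without symbols, and 0 of the 227 IDs matched the gene or promoter sequence tables used here, so genes are identified by their GO terms and their position on GRCm39. The position is that of the annotated transcript whose start lies nearest to a peak, and other starts of the same gene can lie outside it.

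The name "non-sarcomeric" held only in part. Of the 227 genes, 27 carried another contractile term that the rule did not use, such as troponin complex, cardiac myofibril, myosin filament, muscle contraction or dystrophin-associated complex (terms chosen after the data had been seen). Among them were 4 genes of the troponin complex, which places calcium control on the thin filament. The remaining 200 genes carried none of these terms. Lists of GO terms describe the tissue here, since marker symbols could not be used. All listed genes were drawn from genes with a peak, and 11494 of the 13687 genes with GO terms had a promoter peak. The counts that follow therefore do not check the heart label. A promoter peak was present for 22 of 25 genes of cardiac muscle contraction and 7 of 7 of the cardiac myofibril, at median signals of 53.8 and 68.7 CPM (reads scaled to the total of reads in peaks), and also for 26 of 30 genes of collagen fibril organisation (15.7 CPM), 6 of 6 endothelial genes (47.7 CPM), 5 of 5 of smooth muscle contraction (10.5 CPM), 33 of 36 of phagocytosis (20.1 CPM) and 34 of 34 of erythrocyte development (33.9 CPM).

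The Wtapflox/flox library held 9835753 reads in peaks and the Wtap-CKO library 9816384, with medians of 64 and 67 reads per peak. Ratios below are log2 of Wtap-CKO over Wtapflox/flox, from CPM with 0.5 CPM added, and their 95% intervals are exact conditional binomial (Clopper-Pearson) intervals that cover counting error only. Reads amplified by PCR without molecular identifiers are not independent molecules, so the error may be larger. Peaks held 16.8% of reads in Wtapflox/flox and 14.5% in Wtap-CKO by the totals that the authors' own scaling implies. On that scale (RPM) the totals shift log2 ratios by -0.22. Weak sums depart from this, since RPM adds 1 read to a count and the CPM ratio adds 0.5 CPM. A promoter peak with 44 against 9 reads goes from 1.82 to 1.96. The median of all genes moves from -0.06 to -0.27 at promoters and from 0.07 to -0.15 at distal peaks. Weak sums aside, a ratio between 0 and the size of this shift changes its sign. Directions below are therefore given on the CPM scale and beside the value of all genes. In whole hearts, fewer nuclei of a cell type and less open chromatin per nucleus cannot be told apart.

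Promoters of the actin-binding genes were slightly less accessible in the Wtap-CKO library, by more than the promoters of all genes. The median log2 ratio of the 202 promoter sums was -0.13, against -0.06 for 16298 genes with a promoter peak and -0.06 for the 11494 of these with GO terms. The difference of the medians was -0.077, and -0.076 on the authors' RPM scale. The ratio was below 0 for 144 of the 202 genes (71.3%), where 57.4% of all genes were below 0. The counting interval lay wholly below 0 for 71 genes (35.1%; 23.5% of all genes) and wholly above 0 for 19 (9.41%; 13.5% of all genes).

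Summed over genes, the member promoters held 80420 Wtap-CKO and 87597 Wtapflox/flox reads, which is 8192 against 8906 CPM and a log2 ratio of -0.12 (-0.13 to -0.11). The same sum over all genes had a log2 ratio of -0.05. The shift was small for a single gene: 173 of 202 promoters lay within 0.5 of 0 on the log2 scale (85.6%, against 84.8% of all genes). In quantiles, the 0.1 quantile of the member promoters was -0.54 (all genes -0.46), the 0.25 quantile -0.28 (-0.25), the 0.75 quantile 0.03 (0.15) and the 0.9 quantile 0.23 (0.39). At each of these quantiles the members lay below all genes, and by more in the upper ones.

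**Figure D1:**
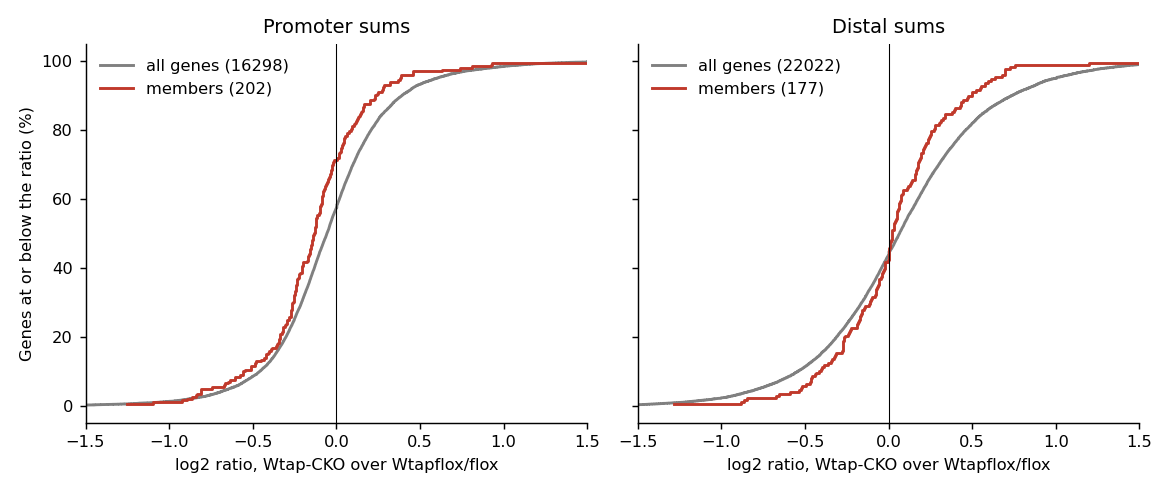
Cumulative share of genes (y axis, percent) at or below each ratio (x axis, log2, Wtap-CKO over Wtapflox/flox, drawn from -1.5 to 1.5) for promoter sums (left) and distal sums (right), members in red and all genes in grey. The member curve lies to the left of all genes over most of the promoter plot (medians -0.13 and -0.06), and at distal peaks it crosses that of all genes and is steeper (medians 0.02 and 0.07); on the authors' RPM scale both distal medians fall below 0.

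Signal strength differed between members and other genes, since the median member promoter had 29.9 CPM and the median promoter of all genes 22.6 CPM. Within quartiles of signal, the member medians from the weakest to the strongest promoters were -0.34 (27 genes), -0.23 (49 genes), -0.07 (56 genes) and -0.13 (70 genes). All genes had medians of -0.04, -0.02, -0.04 and -0.09 in the same quartiles. The member median was lower than that of all genes in each quartile, and the gap was smallest in the 2 stronger ones, where the ratio was below 0 for 57.1% and 78.6% of members against 57.0% and 67.2% of all genes.

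No member promoter passed 2-fold among the 175 whose mean signal was over the floor of 9.67 CPM, the 25th percentile of all genes. Over that floor, 0.196% of all genes were 2-fold higher and 0.18% 2-fold lower, so 0 of 175 is near the background. On the authors' RPM scale, 0 were 2-fold higher (background 0.0491%) and 3 were 2-fold lower (background 0.802%). At 1.5-fold, 1 member was higher (background 1.63%) and 8 were lower (background 2.52%). Below the floor, 1 member was 2-fold higher and 2 were 2-fold lower, on few reads. The higher one was a troponin complex gene of skeletal muscle contraction (chromosome 2, 164619081-164621661) with 44 reads in Wtap-CKO against 9, or 1.82 (1.24 to 3.51). The lower ones were a crosslinking gene of neural tube closure that also binds monomers (chromosome 11, 12186608-12414804; 24 against 57 reads, -1.10) and a gene of neuron migration (chromosome 1, 74894093-74896891; 21 against 57 reads, -1.25). With the floor set aside, the sums just past 2-fold were thus -1.10 and 1.82, both under the floor. Just short of 2-fold was -0.92, over the floor, for the chromosome 9 myosin described below. On the higher side it was 0.93, under the floor, for a gene of dendrite and Purkinje cell layer development on chromosome 14 with 33 against 15 reads.

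**Figure D2:**
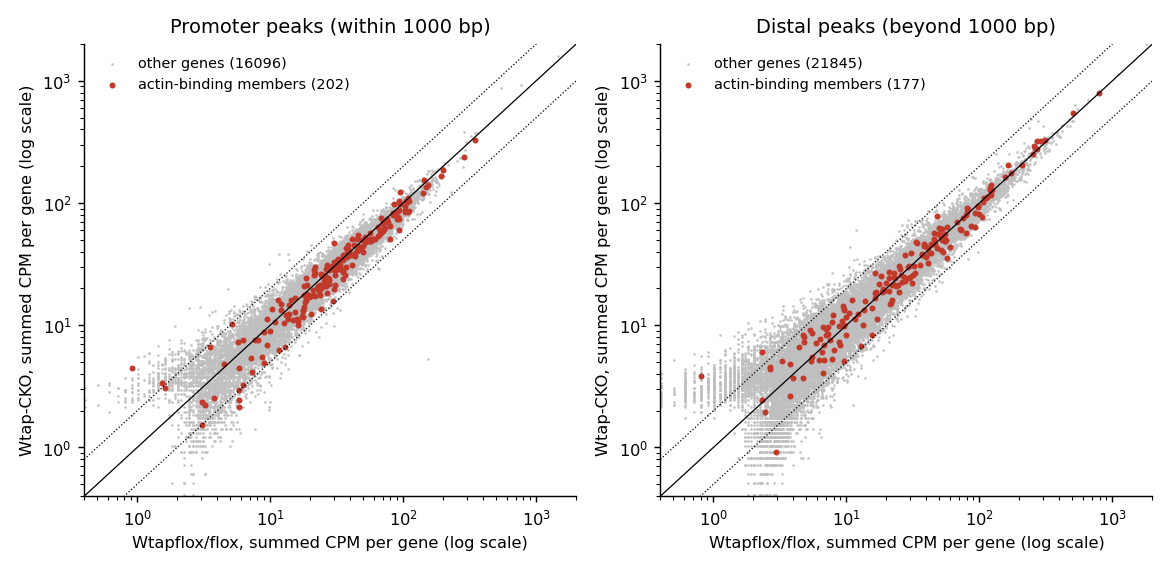
Summed CPM per gene in Wtapflox/flox (x axis) and Wtap-CKO (y axis), both on log scales, for promoter peaks (left) and distal peaks (right), with members in red, other genes in grey, the line of equality solid and the 2-fold lines dotted; 8 sums of other genes with extreme values lie outside the axes. Member points follow the line of equality, and the few beyond a dotted line are weak ones, such as 4.48 against 0.915 CPM for the troponin complex gene.

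Proteins that bind actin monomers control the pool from which filaments grow. Of 9 such genes, 8 had a promoter peak, with a median of -0.16 and 5 below 0. For this and each role below, the share of all genes below 0 was 57.4% at promoters and 43.6% at distal sums. The gene that also carried the terms ruffle, GTPase activator activity and phosphoinositide binding (ENSMUSG00000033763, chromosome 8, 111448108-111468032) had 154 promoter reads in Wtap-CKO against 291, -0.89 (-1.21 to -0.63). Its 7 distal peaks were lower too, with 800 against 970 reads (-0.27). The monomer-binding gene on chromosome 15 at 58813083-58953838 had 825 against 1019 promoter reads (-0.30). At the other end stood a stress fibre gene with monomer binding and cholesterol terms (chromosome 15, 99694299-99700014), with 448 against 379 promoter reads, 0.24 (0.04 to 0.45). Monomer binding was the role with the lowest distal median, -0.19, and 6 of its 8 distal sums were below 0.

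Nucleators start new filaments, either as branches from the Arp2/3 complex or as straight filaments. The 15 genes of Arp2/3 and nucleation all had a promoter peak, with a median of -0.14 and 11 below 0. Their 11 distal sums had a median of 0.18 on the CPM scale, at a weak median signal of 7.63 CPM (all members 26.6 CPM). In all, 6 genes carried the Arp2/3 complex term itself (a term chosen after the data had been seen), and 5 of these 6 promoters were below 0, with a median of -0.23. Of these, 3 were close to each other in ratio: 495 against 581 reads on chromosome 1 (-0.23), 591 against 694 on chromosome 11 (-0.23) and 564 against 670 on chromosome 2 (-0.24). Another, on chromosome 5 at 122529941-122544242, had 814 against 831 reads (-0.03).

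The other 2 Arp2/3 genes are neighbours on chromosome 5 and differed in direction. The gene at 145020640-145045571 had 254 Wtap-CKO and 209 Wtapflox/flox promoter reads, 0.28 (0.01 to 0.56). The gene at 145051025-145066509 had 170 against 201, -0.23 (-0.54 to 0.06), with 382 against 302 reads in 4 distal peaks (0.34). Their promoter intervals overlapped between 0.01 and 0.06. The highest nucleation promoter was that of a gene with vesicle transport and fear response terms on chromosome 18 (67621279-67743860), with 14.9 against 12.1 CPM and an interval that included 0, 0.29 (-0.06 to 0.66).

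Filament-binding proteins made up the largest role, 92 genes. Their 83 promoters had a median of -0.13 with 54 below 0, and their 72 distal sums a median of 0.04. Bundling or crosslinking proteins hold filaments side by side or in nets. They had a promoter median of -0.20 over 18 genes, with 10 below 0, a share near the 57.4% of all genes. The lowest of these over the floor was a stereocilium bundling gene of sound perception (chromosome 1, 91249797-91276028), with 106 against 159 promoter reads (-0.56), whose single distal peak went the other way with 157 against 108 reads (0.52). The highest was a gene of smooth muscle contraction and the actin cap on chromosome 6 (34575435-34752389), with 494 against 409 reads (0.27).

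Barbed-end capping proteins stop growth at the fast end. Their 13 promoters had a median of -0.14 with 9 below 0, and their 11 distal sums a median of 0.19 with 2 below 0. Severing or depolymerising proteins break filaments up, and their 9 promoters had a median of -0.12 with 7 below 0, against a distal median of 0.17. The severing gene of the cortical patch on chromosome 2 (143757240-143785244) had 585 Wtap-CKO and 915 Wtapflox/flox promoter reads, -0.64 (-0.79 to -0.49), and 99 against 131 distal reads (-0.38). Another severing and capping gene, on chromosome 18 at 4920540-5119291, had 970 against 846 promoter reads (0.20) and 3155 against 2688 reads in 23 distal peaks (0.23). Pointed-end capping (a list added after the data had been seen) was carried by 4 genes, 2 below 0 and 2 above, and all 4 counting intervals included 0.

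Myosins are the motors of actin filaments. In all, 28 members belonged to myosin complexes or had motor activity, and 25 had a promoter peak, with a median of -0.20, 17 below 0, 10 intervals wholly below 0 (23.5% of all genes) and 3 wholly above (13.5%). The lowest and the highest member promoters over the floor were both myosins of vesicle transport along actin. A secretory granule myosin on chromosome 9 (ENSMUSG00000033590, 75139302-75212733) had 65 Wtap-CKO and 128 Wtapflox/flox promoter reads, -0.92 (-1.43 to -0.53), while its 3 distal peaks held 187 against 190 reads (-0.02). A microvillus and vesicle myosin on chromosome 5 (ENSMUSG00000066952, 114494876-114502637) had 465 against 299, 0.63 (0.43 to 0.85), and 50 against 53 in 2 distal peaks. Nearly all of its excess lay in 1 of its 2 promoter peaks, which held 417 against 250 reads, where the other held 48 against 49. In both genes the promoter differed between the libraries and the distal sum did not by more than counting error.

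Among other myosins, the cardiac myofibril myosin on chromosome 2 (155453132-155476227) had 133 against 237 promoter reads (-0.81), and all 6 of its distal peaks were lower, from -0.80 to -0.17. A myosin on chromosome 18 (74575676-74792131) had 122 against 198 promoter reads (-0.67) but 1262 against 1189 distal reads (0.09). A myosin of phagocytosis and the microvillus on chromosome 7 (97730377-97733926) had 239 against 182 promoter reads (0.39). The Golgi and brush border myosin on chromosome 11 (77654072-77756806), one of the 5 members with the most promoter reads, had 1627 against 1902 (-0.22) and an even distal sum of 745 against 746. Myosin promoters therefore ranged from -0.92 to 0.63.

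Spectrins form the net under the plasma membrane and bind short actin filaments. Spectrin and spectrin binding was the only role of the 17 lists whose promoter median lay above 0 on the CPM scale, 0.12 over 8 genes with 3 below 0, and this median changes its sign on the RPM scale. Its intervals were wholly above 0 for 4 genes (13.5% of all genes) and wholly below 0 for 2 (23.5%). A spectrin-binding gene of Golgi and lysosomal transport (chromosome 2, 119871974-119916159) had 294 against 213 promoter reads (0.46) and a spectrin with terms for lymphocyte homeostasis and porphyrin synthesis on chromosome 1 (174000342-174076016) had 133 against 101 (0.38). The spectrin with the opposite ratio, on chromosome 12 (76627262-76757321), had 501 against 788 promoter reads, -0.65 (-0.82 to -0.49). Its deficit lay at the peak over its start, with 406 against 713 reads, while a second promoter peak held 95 against 75 and its distal peaks 438 against 385. The spectrin gene on chromosome 11 (30056785-30148257), with 5 promoter peaks, had 923 against 1021 reads (-0.14).

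Members at adhesion sites and stress fibres, where filaments pull on the matrix, were nearer to all genes. Stress fibre genes had a promoter median of -0.04 over 17 genes and focal adhesion genes -0.09 over 20, with distal medians of 0.14 and 0.10. The integrin and vinculin adaptor on chromosome 4 (43555106-43558460) had 1200 Wtap-CKO and 931 Wtapflox/flox promoter reads, 0.37 (0.24 to 0.49), with all 3 promoter peaks higher (0.83, 0.56 and 0.23) and 141 against 93 reads in its distal peak (0.58). The focal adhesion gene of fibroblast migration on chromosome 1 (73992532-74002202) had the most promoter reads of all members, 3227 against 3429 (-0.08) in 12 promoter peaks, which ranged from -0.49 to 0.61. Next came a gene with intermediate filament, muscle structure and focal adhesion terms on chromosome 15 (76055176-76083606), with 2336 against 2817 promoter reads (-0.27) and 426 against 592 distal reads (-0.47). A calcium and microtubule-binding gene with an intermediate filament term on chromosome 4 (123291068-123306021) had 1822 against 1961 promoter reads (-0.10) and 1373 against 1202 distal reads (0.19).

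At the moving edge and the cortex, lamellipodium genes had a promoter median of -0.13 (26 genes), filopodium genes -0.16 (9 genes) and cortex genes -0.14 (32 genes). The lamellipodium gene that slows depolymerisation on chromosome 17 (84819323-84929566) had 114 against 173 promoter reads (-0.58) and 183 against 243 distal reads (-0.40). A lamellipodium gene of starvation response and lysosomal localisation on chromosome 7 (15853820-15855449) had 265 against 212 (0.32) and no distal peak. Members that also bind microtubules (14 genes, median -0.11, 12 below 0) included an endosome and centrosome gene on chromosome 4 (95855477-95913650) with 194 against 298 reads (-0.60). Members that bind small GTPases had a median of -0.12 over 16 genes.

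The lowest promoter median among the 17 roles belonged to genes with synapse or dendritic spine terms, -0.22, with 27 of 32 below 0. Of these 32 genes, 9 had an interval wholly below 0 (23.5% of all genes), a share near the background, and 2 wholly above (13.5%). The lowest was a parallel bundling gene of microvilli and hearing (chromosome 4, 152212599-152215687), with 209 against 300 reads (-0.51). These genes also serve other places in the cell, and 6 of the 32 carried one of the added contractile terms. Members with the nucleus term had a median of -0.13 over 44 genes with 35 below 0; the lowest of them, an inhibitor of protein phosphatase 1 on chromosome 2 (177969349-177973559), had 99 against 160 promoter reads (-0.66) and 779 against 780 distal reads. The 29 promoters of members in no role list had a median of -0.14. A gene can stand in several lists, so their medians share genes.

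**Figure D3:**
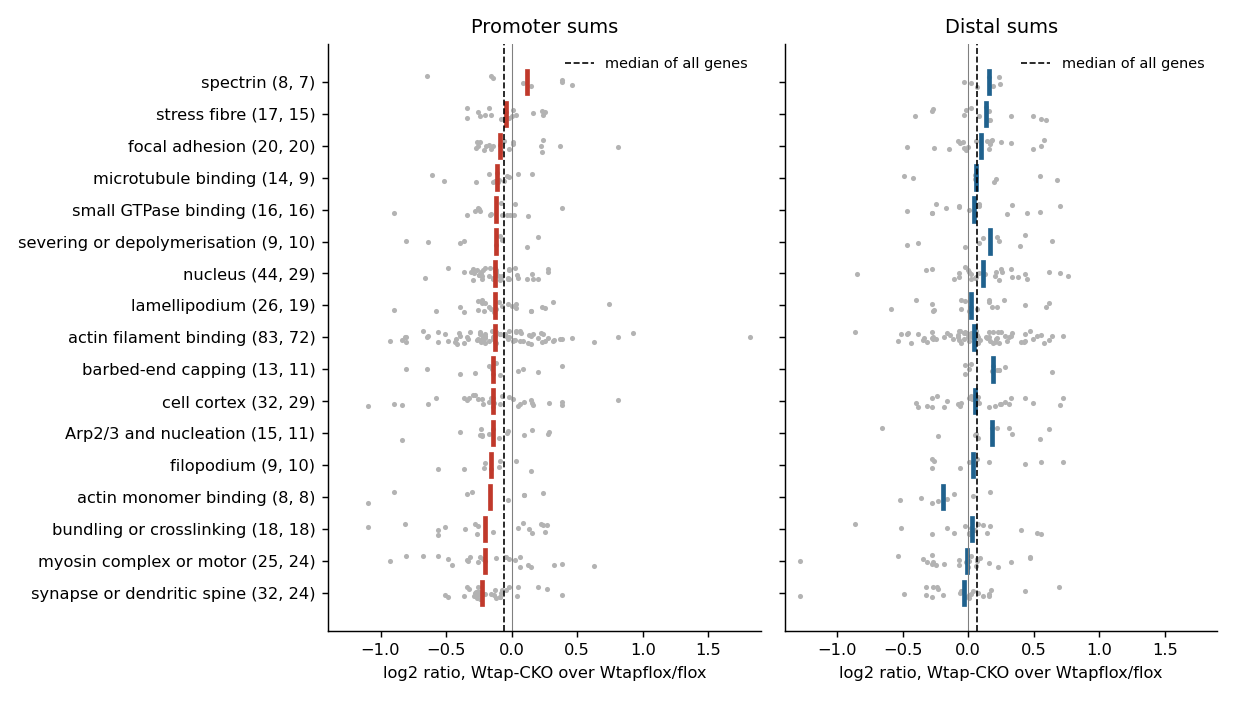
Log2 ratios of promoter sums (left) and distal sums (right) for members of each role; grey points are genes, coloured bars the median of the role, the dashed line the median of all genes, and the numbers in brackets the genes with a promoter and a distal sum. Promoter medians of all roles but spectrin (0.12), stress fibre (-0.04) and focal adhesion (-0.09) lie between -0.22 and -0.11, while most distal medians lie above 0. On the authors' RPM scale points of stronger sums move left by about 0.22, and the medians above 0 change their sign. Weak points move by other amounts, and the highest promoter point moves right, from 1.82 to 1.96.

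Of the 10 highest and 10 lowest promoters over the floor, those not yet described were a sodium channel regulator with cadherin binding on chromosome 7 (30732147-30741264; 157 against 113 reads, 0.46) and a gene of Wnt signalling and left-right symmetry on chromosome 17 (ENSMUSG00000040260, 49763050-49871365). The latter had 276 Wtap-CKO and 211 Wtapflox/flox promoter reads, 0.38 (0.13 to 0.66). Its 8 distal peaks held 767 against 472 reads, 0.70 (0.54 to 0.87). It was one of 2 members in the top 10 by promoter, with the integrin adaptor, whose distal interval was also wholly above 0. In the lowest 10, the distal interval was wholly below 0 for the genes on chromosome 8, on chromosome 2 (the cardiac myofibril myosin and the severing gene) and on chromosome 17, and wholly above 0 for the stereocilium bundling gene.

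**Figure D4:**
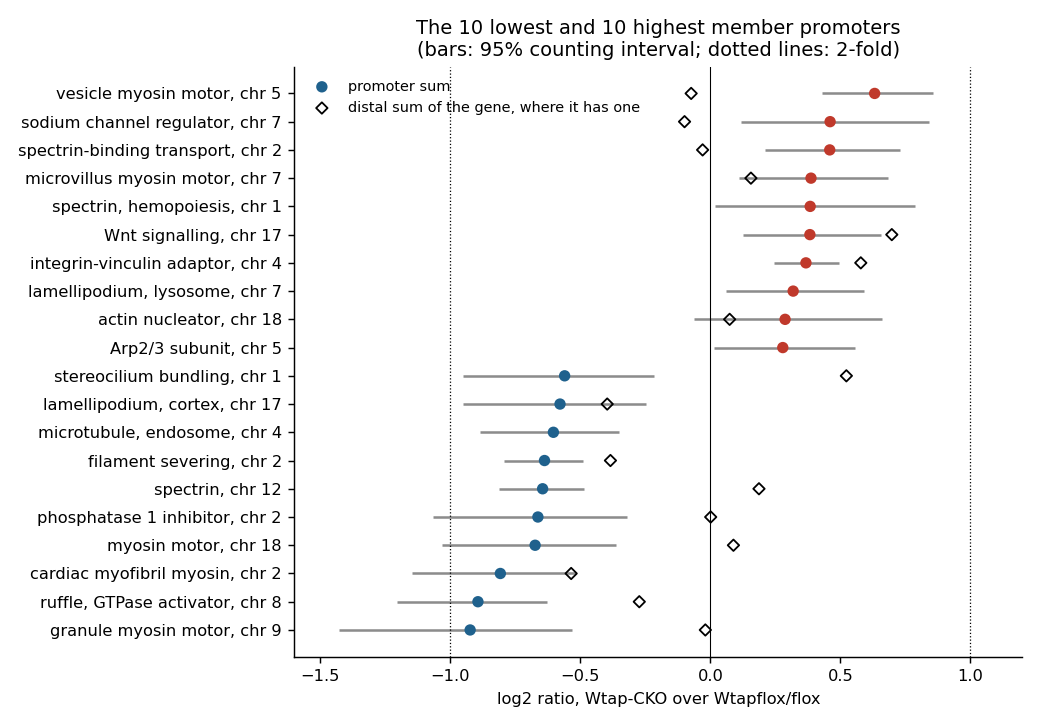
Log2 ratios of the 10 lowest and 10 highest member promoter sums over the floor (filled points, with 95% counting intervals as bars) and of the distal sum of the same gene where it has one (open diamonds); dotted lines mark 2-fold. The promoters run from -0.92 to 0.63, and diamonds stand on the opposite side of 0 for several genes, as for the stereocilium bundling gene (-0.56 and 0.52).

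Distal accessibility of the actin-binding genes was nearly even between the libraries and near that of all genes. The median distal log2 ratio was 0.02 over 177 members, against 0.07 over 22022 genes, and 75 members were below 0 (42.4%; 43.6% of all genes). The interval was wholly above 0 for 42 members (23.7%; 26.5% of all genes) and wholly below 0 for 32 (18.1%; 16.6% of all genes), shares near the background. Distal reads summed to 96156 in Wtap-CKO and 94482 in Wtapflox/flox, 0.03 (0.02 to 0.04), where all genes gave 0.05; on the RPM scale the member sum was -0.19. The spread was narrower than in all genes: 85.3% of members lay within 0.5 of 0, against 70.7%, and the median member distal sum was larger, 26.6 against 11.2 CPM.

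Over the distal floor of 5.10 CPM, 0 of 165 members were 2-fold higher and 0 were 2-fold lower, where 2.19% and 0.569% of all genes were. On the authors' RPM scale, 0 of these members were 2-fold higher (background 0.999%) and 3 were lower (background 2.28%). At 1.5-fold, 7 were higher (background 9.86%) and 6 lower (background 4.77%). The highest distal sums were those of an actomyosin ring and ubiquitin ligase gene on chromosome 5 (33492853-33530640; 81 against 46 reads, 0.76), a cell shape and filopodium gene on chromosome 2 (57935125-57942876; 89 against 52, 0.73), the Wnt signalling gene, a fibrillar centre and cortex gene on chromosome 15 (10569055-10714653; 265 against 162, 0.70) and a microtubule bundling gene on chromosome 1 (66214432-66419776; 78 against 47, 0.68). This last gene had the reverse at its promoter, with 181 against 261 reads (-0.51). The lowest were a calmodulin-binding actomyosin gene on chromosome 9 (22010512-22019630; 81 against 154, -0.88) and a brush border bundling gene on chromosome 9 (95634695-95727339; 67 against 126, -0.86), followed by genes on chromosome 13 (55562501-55563045; 50 against 94, -0.85), chromosome 6 (54448987-54462345; 347 against 558, -0.67) and chromosome 13 (93566609-93636316; 40 against 66, -0.66). Of these 10 sums, 5 had under 100 reads in each library.

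Under the distal floor, 2 members were 2-fold higher and 1 was 2-fold lower. A Notch and ubiquitin ligase gene on chromosome 4 (155739139-155753655) had 59 against 23 reads and an acrosome gene on chromosome 9 (58267087-58277652) had 38 against 8 (1.73). A myosin with GTPase activator activity on chromosome 9 (59658179-59836149) had 9 against 29 (-1.28). All 3 rest on a single peak.

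In the 152 members with both sums, the distal ratio was above the promoter ratio in 105 (69.1%; 62% of all genes with both). The median difference was 0.16, and 0.15 over all genes, so the size of the gap was near that of all genes. On the CPM scale, the commonest arrangement was a promoter below 0 with distal peaks above 0, in 62 members. Another 49 were below 0 in both, 28 above 0 in both and 13 the reverse. This split was not counted over all genes, so it is not read as a trait of the members. Over all genes, 57.4% of promoter sums and 43.6% of distal sums were below 0. The signs, and so the split, depend on the scale, since RPM shifts log2 ratios by -0.22. Over 133 members above both floors, promoter and distal ratios had a Pearson correlation of 0.25 and a Spearman correlation of 0.24, against 0.16 and 0.16 over 6188 genes. These points share the 2 libraries and their depths, and genes are not replicates, so the correlations are descriptions.

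By distance, the 274 member peaks that overlap a start had a median of -0.15 (all peaks -0.08), and the 140 at 1 to 1000 bp -0.04 (all -0.02). The 510 peaks farther out, up to 10000 bp, had a median of 0.00 (all 0.05) and the 443 beyond these, up to 100000 bp, 0.05 (all 0.05). Reads over a start summed to 62556 for Wtap-CKO and 69101 for Wtapflox/flox, -0.14 (-0.16 to -0.13), with -0.06 for all such peaks. The sums were also below those of all peaks up to 1000 bp (-0.05 against 0.01) and up to 10000 bp (0.00 against 0.05), and not beyond that, up to 100000 bp (0.07 against 0.05). The 11 peaks beyond 100000 bp held 498 against 528 reads and were too few to place.

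Promoter peaks of one gene often went different ways. Of 94 members with at least 2 promoter peaks over the peak floor of 3.92 CPM, 32 had all of them on one side of 0 (34.0%; 46.0% of all such genes), 26 below (27.7%; 30.8%) and 6 above (6.38%; 15.3%). The share with all peaks below 0 was near that of all genes. These shares were not matched for the number of promoter peaks, which had a median of 1.5 per member and 1 per gene over all genes. A gene with more peaks has more ways to be mixed, so the lower share of members on one side is not read as a trait. Of 388 single promoter peaks over the floor, 6 were 2-fold higher (1.55%; background 1.38%) and 3 were 2-fold lower (0.773%; background 0.841%), shares near the background. The 6 higher ones, named after their values were seen, include a peak at 114104847-114105170 on chromosome 5 near a start of a phosphatase gene of the growth cone, with 118 against 36 reads (1.59), while the sum of that gene's 3 promoter peaks was 419 against 364 (0.20). On chromosome 7, a peak at 111975069-111975485, 994 bp from a start of a heart looping gene, held 189 against 65 reads (1.47). That gene, also among the 5 with the most promoter reads, had 1527 against 1414 in all (0.11), which rests on this peak and was -0.05 in a window of 500 bp. A lower peak, at 181847402-181847875 on chromosome 1, overlaps a start of a profilin-binding stress fibre gene and held 46 against 113 reads (-1.21), though the sum of that gene's 3 promoter peaks was 199 against 223 (-0.16).

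Of 794 distal peaks over the floor, 33 were 2-fold higher (4.16%; background 4.53%) and 11 were 2-fold lower (1.39%; background 1.75%). The higher ones lay at 26 genes and the lower ones at 11 genes. Both kinds occurred at 3 genes. By annotation, 36.4% of member distal peaks lay in introns other than the first (all genes 30.2%), 24% in a first intron (14.5%) and 16.1% were intergenic (35%). Member distal peaks were thus more often intronic than those of all genes, a background that includes genes without GO terms. Member distal peaks had medians of 0.04, -0.03 and 0.07 in these places, and 0.22 for the 49 exonic peaks, where all exonic peaks had 0.08. A further 16.2% of member distal peaks (all genes 13.2%) carried a promoter label although they lay beyond 1000 bp. Their median was -0.02.

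Among single peaks over the peak floor, the highest ratio, at 93080653-93081266 on chromosome 5 in intron 3 of a gene of epithelial development and neural tube closure, held 194 Wtap-CKO and 56 Wtapflox/flox reads, 1.71 (1.36 to 2.25). Intron 1 of the Wnt signalling gene held the next, at 49838641-49839034 on chromosome 17, with 109 against 31 reads (1.67). The other 2 belonged to one stress fibre gene on chromosome 11 that restrains myosin phosphatase, an exonic peak at 59660567-59660958 with 142 against 42 reads (1.65) and an upstream peak at 59546270-59546513 with 65 against 18 (1.61). All 4 had been called by the authors in Wtap-CKO only, and they were chosen by their high ratio.

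The lowest over the floor were a peak at 103068041-103068445 on chromosome 11 in an intron, assigned to a profilin-binding gene of cell migration, with 41 against 122 reads, -1.46 (-2.12 to -1.05), and a peak in intron 27 of a filopodium myosin on chromosome 15, at 25791933-25792324, with 36 against 96 reads (-1.30). An intronic peak at 43256420-43256805 on chromosome 13, assigned to a phosphatase 1 inhibitor, held 36 against 95 (-1.29). The last was the promoter peak of the neuron migration gene on chromosome 1 given above. None of these 4 had been called in Wtap-CKO, and they were chosen by their low ratio. The profilin-binding gene was lower over all its 5 distal peaks, 561 against 777 reads (-0.46), whereas the filopodium myosin was even, 835 against 799 (0.07).

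A small number of genes held most of the distal reads. The 24 members with at least 10 distal peaks held 444 of the 964 peaks and 53.9% (Wtap-CKO) and 52.2% (Wtapflox/flox) of the member distal reads. Their summed interval was wholly above 0 for 9 (37.5%) and wholly below 0 for 2 (8.33%), where 31.8% and 23.0% of the 738 genes with as many distal peaks were. All 24 had peaks over the peak floor on both sides of 0. This was not counted for the 738 genes, so it is not read as a trait of the members. The focal adhesion gene of chromosome 1 had the most, 42 distal peaks, 16 above 0 and 26 below, from -1.07 to 1.01, that summed to 7735 against 7749 reads (0.00).

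The highest distal log2 ratio among these 24 was at a stress fibre myosin on chromosome 15 (77644787-77726375). Its 14 distal peaks held 2014 Wtap-CKO and 1607 Wtapflox/flox reads, 0.33 (0.23 to 0.42), with 3 peaks 2-fold higher (1.31, 1.18 and 1.03) and none 2-fold lower. Its promoter was even, 1013 against 1031 reads (-0.02). The severing and capping gene of chromosome 18 (0.23) and a cortex gene that binds spectrin on chromosome 10 (25235696-25399413; 602 against 509 reads, 0.24) followed. The 2 sums with intervals below 0 were those of a lamellipodium and cilium gene on chromosome 18, 589 against 712 (-0.27), and of the crosslinking gene of chromosome 11, 815 against 913 (-0.16), which was also 2-fold lower at its weak promoter.

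**Figure D5:**
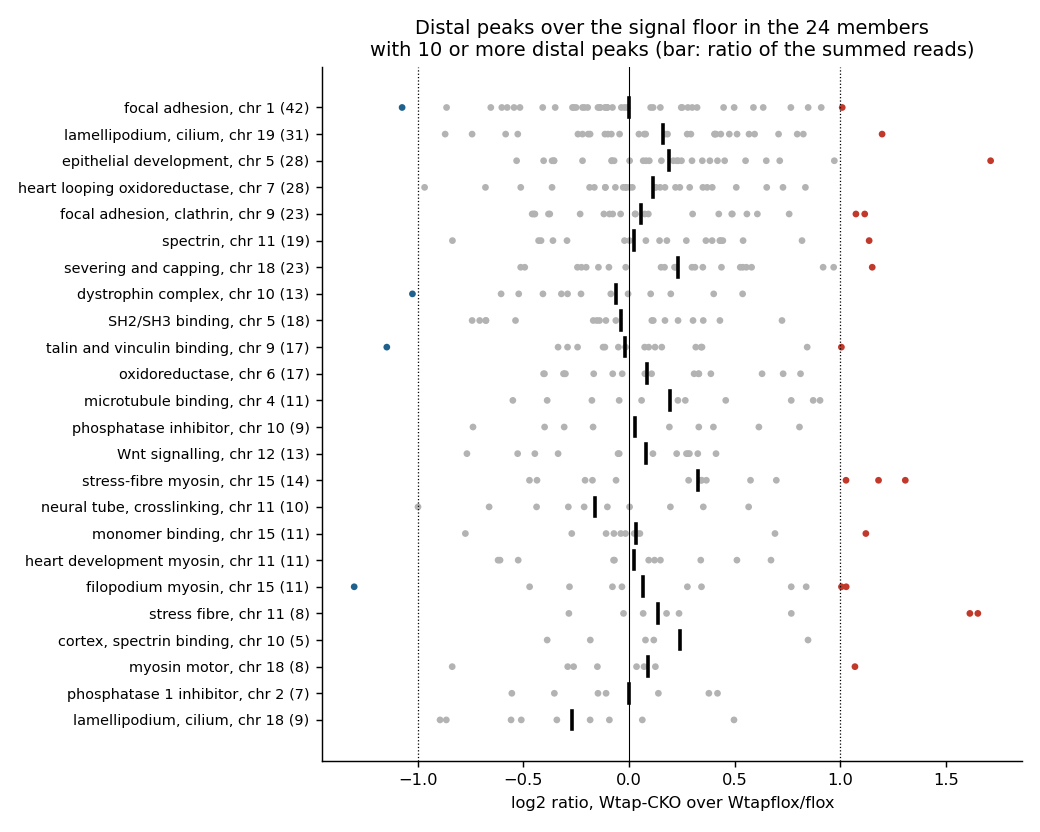
Log2 ratios of single distal peaks over the peak floor (points, number in brackets) in the 24 members with at least 10 distal peaks, ordered by number of distal peaks; black bars give the ratio of the summed reads, red and blue points are at least 2-fold higher or lower, and dotted lines mark 2-fold. Peaks of each gene fall on both sides of 0 while the sums stay between -0.27 and 0.33; sums between 0 and about 0.22 change their sign on the authors' RPM scale.

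The promoter median was also -0.13 without the members that carry contractile terms. Of the 177 promoters of the 200 remaining genes, 127 were below 0, and the 25 promoters of the contractile ones had a median of -0.21 with 17 below 0. Among the troponin complex genes, besides the weak promoter on chromosome 2, the one on chromosome 1 (135710803-135733360) had 833 against 1065 promoter reads (-0.35), and those on chromosome 7 had 173 against 176 (-0.02) and 54 against 85 (-0.61, under the floor).

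The 54 actin-binding genes that the rule leaves out, those of the sarcomere and of cell junctions, had a similar promoter median, -0.16 over 53 genes, with 43 below 0, and a distal median of 0.03. Genes of actin cytoskeleton organisation without actin binding had -0.07 over 86 genes and microtubule-binding genes -0.11 over 164. Actin-binding genes in and out of the group thus lay on the same side of the related lists, and no difference between the lists was tested. Genes of the cardiac muscle lists were also lower, with a promoter median of -0.17 for cardiac muscle contraction (17 of 22 below 0, from -0.67 to 0.24) and -0.31 for the cardiac myofibril (7 of 7 below 0, 1 of them the member myosin of chromosome 2), while smooth muscle contraction had -0.18 over only 5 genes and collagen (-0.07), endothelial (-0.04), phagocytosis (-0.05) and erythrocyte genes (-0.03) were nearer to all genes. At distal peaks the medians were -0.19 for cardiac muscle contraction (13 of 18 below 0) and -0.18 for the cardiac myofibril (4 of 6), against 0.02 for members. The distal medians were 0.33 for smooth muscle contraction, 0.21 for collagen, 0.04 for endothelial, 0.02 for phagocytosis and 0.17 for erythrocyte genes. Members thus lay on the side of the cardiac lists at promoters and not at distal peaks. The part of a changed share of cardiomyocyte nuclei in the member ratios was not tested.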

How the data were processed

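ATAC-seq of 1 Wtapflox/flox and 1 Wtap-CKO heart pool was analysed from 1 peak table; groups follow the genotype labels. The tools listed, per the submitters' processing notes and without roles, are MACS2 2.1.0, ChIPseeker, HOMER 4.11, BWA 0.7.12 and fastp 0.20.0, with GRCm39. The sources used here do not give the Tn5 offset, the filters for duplicates and mitochondrial reads or the peak threshold; unremoved duplicates would make the intervals too narrow. Counts deposited by the authors are whole reads per merged peak and library. The deposited RPM is the count plus 1 read times 1 constant per library, and the deposited fold enrichment is a ratio to an even spread, from the values; it was not used. The deposited log2 values are ratios of these RPM. Marks of calling, distances and GO terms are as deposited. The GO terms of another 1784 genes were left out and not analysed here.

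Counts were summed per gene within and beyond 1000 bp, divided by reads in all peaks (CPM), and compared as log2 with 0.5 CPM added. Floors are the 25th percentile of mean CPM and calls are 2-fold. With 1 library per genotype no test was run. Intervals are 95% Clopper-Pearson, conditional on the total. Python 3.11.15, numpy 2.4.6, pandas 2.3.3, scipy 1.17.1 and matplotlib 3.10.9 were used, and the calculations were tested on simulated data. Named genes were the 10 highest and 10 lowest promoters and the 5 highest and 5 lowest distal sums over the floor, the 5 with most promoter reads, the 4 highest and 4 lowest peaks, members past 2-fold and those beside that limit; the extremes of roles, the 24 members with many distal peaks and single promoter peaks were added after their values were seen. Members and lists were chosen with earlier results of these data known, and the contractile, pointed-end and Arp2/3 complex lists after seeing these values. Marker symbols and promoter motifs were planned and not used, since the IDs could not be tied to symbols or sequences. One planned list of related genes is not reported here.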

Additional observations from a re-analysis of the deposited data

How the results depend on the processing

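Of the alternatives, 17 were planned and 1, members without a contractile term, was added after seeing the data. The promoter median minus that of all genes stayed between -0.098 and -0.068 and the distal one between -0.062 and -0.021. Counts of peaks and genes past the limit rest on the settings. Under the authors' RPM, the promoter and distal medians were -0.35 and -0.19, the summed ratios -0.34 and -0.19 (the distal sum changed sign), 19 distal peaks were higher and 41 lower, 3 promoter peaks higher and 21 lower, and 3 members were 2-fold lower at promoters (background 0.802%) and 3 at distal peaks (background 2.28%); the shift of scale is that of the totals. In order of distal peaks higher and lower, then promoter peaks higher and lower, the counts were 10, 7, 2 and 1 with 2 CPM added, 58, 27, 11 and 5 with no floor, 13, 6, 3 and 1 with the floor at the median, 102, 76, 22 and 31 at 1.5-fold, 0 throughout at 4-fold, 4, 4, 2 and 0 for peaks called in both libraries, and 19, 6, 3 and 0 for members with actin filament binding; all actin-binding genes gave 7 lower promoter peaks. With no floor, 2 members were higher and 1 lower at distal peaks and 1 higher and 2 lower at promoters; at 1.5-fold these were 7, 6, 1 and 8. The summed distal ratio was 0.043 with a window of 3000 bp, 0.0061 for peaks called in both libraries and 0.047 for filament-binding members. The summed promoter ratio was -0.16 for the nearest promoter peak and -0.094 for filament-binding members. The heart looping gene of chromosome 7 changed sign at its promoter, with -0.10 under RPM, -0.045 in a window of 500 bp and -0.17 for the nearest peak. Beyond the RPM scale and changes of limit or floor, the cause was not tested. Of 516 values of the 40 named genes, 491 moved by less than counting error. Part of these could not move. Settings that change only the set of members leave the value of a gene as it was. The nearest-peak setting does the same for a promoter with 1 peak. The tally is therefore not a measure of how stable the values are. No paired analysis was possible because each genotype has 1 library. Depth limits single peaks, at a median of 64 and 67 reads.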
